A study of Mus musculus with 7 samples.

Results

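The 4 ATAC-seq libraries of mouse muscle stem cells (MuSCs) at 0 h, 2 from Control and 2 from TRF2KO animals, were compared gene by gene. They are 4 of the 7 libraries of the series and were selected by their titles. The titles give 0 h, which was read as without muscle injury. The unit of description was the protein-coding gene on chromosomes 1 to 19. Of 20807 such genes, 15644 had an ATAC peak within 3 kb of an annotated start site in at least 1 library, and 14411 had one in all 4. The remaining genes had a peak in 1 (539), 2 (330), 3 (364) or no library (5163).

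MuSCs were sorted from hind limb muscle. TRF2KO denotes deletion of floxed Terf2 by a tamoxifen-inducible Cre under Pax7, so deletion is limited to cells that express Pax7 when tamoxifen is given. Tamoxifen was given to adult animals on a C57BL/6 background. The study calls the Control animals of the ATAC-seq wild type. Whether they carried the Cre or received tamoxifen, and whether animals were pooled, is not given in the sources used here. The GEO genotype entry is wild type for all 4, and the titles were followed. Nothing states that the 2 libraries of a genotype came from separate animals, so p-values measure only the spread between these libraries.

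TRF2, the product of Terf2, is a subunit of shelterin, the complex that caps telomeres and keeps chromosome ends from being read as broken DNA. Loss of the cap is known to activate the ATM kinase and, through it, the transcription factor p53, whose targets stop the cell cycle or start apoptosis. MuSCs are held in quiescence by Pax7 and Notch signals and carry the machinery for entry into myogenesis, in which basic helix-loop-helix factors such as MyoD bind short E-box sequences. In ATAC-seq a transposase cuts open chromatin, so a promoter that is more open gives a stronger peak.

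The strength of a peak was its fold enrichment over local background at the summit, deposited by the authors. Each gene was given the strongest peak with any base within 3 kb of one of its start sites. Because a fold depends on depth, a pair of scales was used. The list percentile is the position of that peak among all peaks of its own library, and the gene rank is the position of the gene among the 14411 genes with a peak in all 4 libraries, both from 0 to 100. The lists held 87394 and 98558 peaks in Control replicates 1 and 2 and 83039 and 82556 in TRF2KO replicates 1 and 2. The median list percentile over genes was 90.3 in Control replicate 2, which had the longest list, and between 88.8 and 89.1 in the others. Read totals were not analysed here. Across the 14411 genes, the correlation of log2 fold was 0.988 within Control, 0.989 within TRF2KO and between 0.980 and 0.982 across genotypes (Pearson's r across genes, which are not independent replicates).

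Marker genes of MuSCs were open in all 4 libraries. All 12 MuSC markers had a peak in all 4 libraries, at a median list percentile of 92.3 and 93.0 in Control and 90.2 and 90.2 in TRF2KO. Of 6 leukocyte markers, 1 had a peak in all 4 libraries, and Ptprc, Itgam and Adgre1 had none in any. Of 6 endothelial markers, 4 had a peak in all 4, and Emcn had none in any. The same count was 3 of 6 for fibro-adipogenic, 5 of 6 for smooth muscle and pericyte and 5 of 6 for myofibre markers. It was 1 of 3 for glial and 2 of 2 for tenocyte markers. An open start site does not show expression, and some markers of other cells were open. The macrophage gene Cd68 had folds of 93.4 and 75.2 in Control and 91.0 and 83.1 in TRF2KO, and the myofibre gene Mylpf had 195 and 165 in Control and 204 and 194 in TRF2KO.

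The targeted gene was lower in both TRF2KO libraries. Terf2 (ENSMUSG00000031921.17, chr8:107069400-107096547 of GRCm38, minus strand) had 1 peak over its start site, with summits within 31 bp of each other in the 4 libraries. Peak fold at Terf2 was 54.3 and 48.4 in the Control libraries, against 21.5 and 18.6 after deletion. In list percentiles these were 90.0 and 91.4 for Control, then 74.9 and 73.3 for TRF2KO, so the genotypes did not overlap. In the fit across genes the difference was -1.42 ± 0.103 on the log2 scale (SE, n = 2 and 2, limma adjusted p = 4.17e-05). The peak was still called in all 4 libraries. Which exons are floxed is not given in the sources used here, so this fold does not measure the deletion itself. The other shelterin genes did not pass the test. Terf2ip, which encodes the RAP1 partner of TRF2, had folds of 52.0 and 43.2 in Control and 50.5 and 49.0 in TRF2KO (adjusted p = 0.929).

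Over all genes, the genotypes were separated by rank more often than the other 2 pairings of the 4 libraries. By gene rank, 3273 genes (22.7%) lay lower and 3544 (24.6%) higher in both TRF2KO libraries than in both Control libraries. Pairing the second replicates against the first gave 1814 and 1777 genes, and pairing Control replicate 2 and TRF2KO replicate 1 against the remaining pair gave 2163 and 1806. By list percentile the counts for genotype were 4462 lower (31%) and 1322 higher (9.17%), against 556 and 3139, and 450 and 4481, for the other pairings. Ranking SEACR regions by their maximum signal turned the split, with 604 genes lower and 3852 higher in TRF2KO. The direction over all promoters therefore depended on the scale. Gene ranks, which hold the same genes in each library, are used for the gene groups. The median difference in gene rank was 0.137 (exact two-sided permutation p = 0.333) and that in list percentile was -0.29 (exact p = 1.00). With 2 libraries against 2, 0.333 is the smallest p that the 6 assignments of labels can give.

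**Figure D1:**
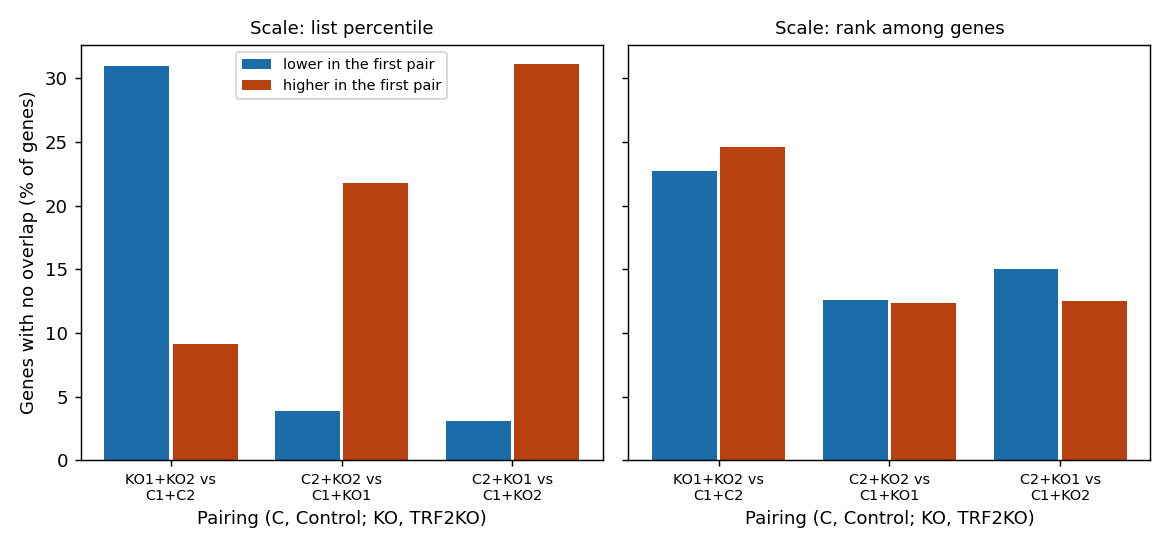
Share of the 14411 genes (%, vertical axis) whose values in one pair of libraries all lie below (blue) or above (orange) those in the other pair, for the 3 pairings. On the list percentile scale (left) each pairing leans strongly one way, and on the gene rank scale (right) genotype separates 22.7% and 24.6% of genes, more than either mixed pairing.

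A fit across all 14411 genes called 191 genes lower in TRF2KO (1.33% of those tested) and 64 higher (0.444%), on quantile-normalised log2 fold (limma with a trend, Benjamini-Hochberg adjusted p under 0.05). At an unadjusted p under 0.05 there were 2302 genes. The called genes all had gene ranks that did not overlap between genotypes. Their differences ranged from 0.20 to 3.16 on the log2 scale, with a median of -0.70 among the lower and 0.67 among the higher. No call survived leaving out Control replicate 1, TRF2KO replicate 1 or TRF2KO replicate 2, and 1 gene, not among the 255, was called without Control replicate 2. Between 1252 and 1756 genes had an unadjusted p under 0.05 in these fits. All 255 called genes had the same direction in each of these 4 fits, which their non-overlapping ranks fixed in advance. The calls therefore rest on all 4 libraries being present.

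For some genes the strongest peak within 3 kb was not the same peak in every library. The 4 summits lay within 500 bp of each other in 148 of the 191 lower and 50 of the 64 higher genes, against 91.5% of all genes. Measuring the distance from the summit in place of any base, an alternative chosen after the results were seen, gave 289 lower and 122 higher genes of 14284. Fitting only the 13190 genes with summits within 500 bp, also chosen afterwards, gave 262 and 108. Of the 255 genes called, 219 were called by summit distance. A gene is described below as having the same peak when its summits lay within 500 bp.

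**Figure D2:**
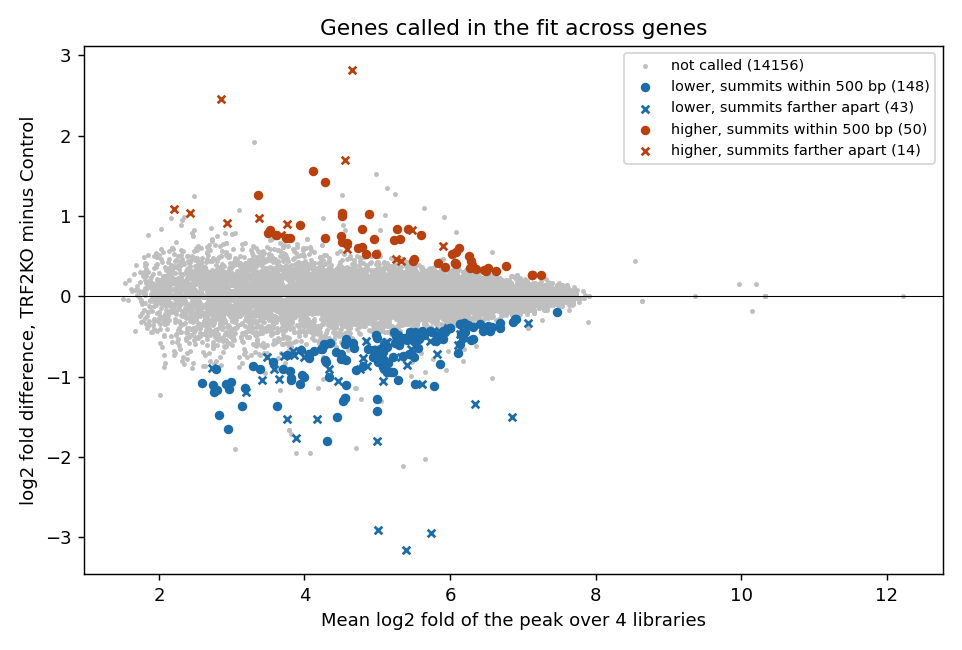
Difference in log2 fold between TRF2KO and Control (vertical axis) against the mean log2 fold of the 4 libraries (horizontal axis), 1 point a gene, with called genes in blue (191 lower) and orange (64 higher). Circles have summits within 500 bp in the 4 libraries and crosses do not, and the largest difference on either side is a cross.

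The largest differences mixed same-peak and different-peak genes. Of the 12 lower genes with the largest difference, Sox18, Gm10604, Rgs14 and Lta had the same peak. Sox18, a transcription factor of endothelial development, had folds of 36.6 and 37.3 in Control and 10.3 and 11.1 in TRF2KO (log2 difference -1.80 ± 0.137, adjusted p = 6.34e-05). Rgs14, a regulator of G-protein signalling, had 39.4 and 33.8 in Control and 15.8 and 10.9 in TRF2KO (-1.50 ± 0.144, adjusted p = 0.000307). Lta, which encodes the cytokine lymphotoxin alpha, had 13.3 and 10.8 against 4.35 and 4.09. The other 8, Trpm5, Rhbdl1, Arl6ip4, Rdh8, Mb, Nfasc, Cacna2d4 and Pdlim4, had summits over 500 bp apart, so their values set different peaks side by side. Trpm5, Rhbdl1 and Arl6ip4 had adjusted p = 0.980, 0.886 and 0.999 when distance was taken from the summit, and Mb, Nfasc, Cacna2d4 and Pdlim4 had 0.537, 0.205, 0.112 and 0.536. Of the 8, Rdh8 alone still passed (adjusted p = 0.0049).

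Among the 12 higher genes with the largest difference, Mmrn2, Mep1b, Svop, Ddit4l, Mmp2 and Foxs1 had the same peak. Mmp2, a secreted gelatinase that cuts basement membrane collagen, had folds of 25.1 and 16.7 in Control and 48.9 and 37.4 in TRF2KO (log2 difference 1.02 ± 0.154, adjusted p = 0.00584). Ddit4l, a stress-induced inhibitor of mTOR signalling, had 17.0 and 14.6 against 35.2 and 31.1 (1.04 ± 0.119, adjusted p = 0.00106). Foxs1, a forkhead factor, had 17.5 and 14.8 against 35.0 and 30.6. The Mmrn2 peak had its summit over 3 kb from the start site, and by summit distance the gene had adjusted p = 0.784. Fndc10, Fam124b, Pbx4, Sdsl, Grhl3 and Ltb4r1 compared different peaks. Of these, Fndc10, Fam124b, Pbx4 and Sdsl also passed by summit distance.

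More p53 targets and cell cycle inhibitors ranked higher than lower in TRF2KO. Of 34 measured p53 targets and cell cycle inhibitors, 17 had a gene rank above both Control libraries and 5 below, where all genes gave 24.6% and 22.7%. The other 2 pairings of the libraries separated 4 and 0, and 3 and 5, of these genes. Both counts can only hold or rise when a library is left out, and all genes then gave 5464 to 5599 higher and 4873 to 5336 lower of 14411. The narrowest balance among these 34 genes was 19 higher and 10 lower, without TRF2KO replicate 2. The median difference in gene rank was 1.54, against 0.137 over all genes. The fit called 5 members higher and none lower, where 0.444% of all genes were called higher and 1.33% lower.

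Bbc3 and Pmaip1 encode BH3-only proteins that start apoptosis. Bbc3, which encodes PUMA, had folds of 46.7 and 46.3 in Control and 84.6 and 69.9 in TRF2KO (log2 difference 0.62 ± 0.0911, adjusted p = 0.00506), with summits up to 732 bp apart. Pmaip1, which encodes NOXA, had 29.2 and 28.4 against 49.4 and 49.0 (0.71 ± 0.101, adjusted p = 0.00434). In both genes the lower TRF2KO library lay above the higher Control library.

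The other 3 act outside the BH3-only group. Phlda3, a repressor of AKT signalling, had 51.1 and 56.5 in Control and 89.9 and 80.8 in TRF2KO (0.55 ± 0.101, adjusted p = 0.0183). Ccng1, which encodes cyclin G1, had 105 and 79.4 against 132 and 128 (0.37 ± 0.0738, adjusted p = 0.0276). Rb1, the retinoblastoma gene, was the fifth (adjusted p = 0.0414), with different summits. Zmat3, an RNA-binding p53 target, had 17.95 and 16.6 against 24.5 and 23.2 and did not pass (adjusted p = 0.103). Cdkn2a, which encodes p16 and p19ARF, had 21.2 and 17.6 against 17.2 and 16.6 (adjusted p = 0.484). In the conditions it assayed, the study found no telomeric DNA damage response in MuSCs without TRF2. By TUNEL staining the study found apoptosis comparable with control, and by qRT-PCR no rise in p53 mRNA and lower p16 mRNA. It also reported that deleting p53 did not restore regeneration. The part of p53 in these ranks was not tested.

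DNA repair and replication genes lay nearer the shares over all genes, which were 24.6% higher and 22.7% lower. Of 55 repair genes, 13 (23.6%) lay higher and 10 (18.2%) lower. Cell cycle and replication genes gave 18 higher (28.6%) and 17 lower (27.0%) of 63. No member of either list was called, against 0.444% higher and 1.33% lower over all genes. Exo1, an exonuclease of end resection, had 26.0 and 21.8 in Control and 15.3 and 17.7 in TRF2KO (adjusted p = 0.0846).

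**Figure D3:**
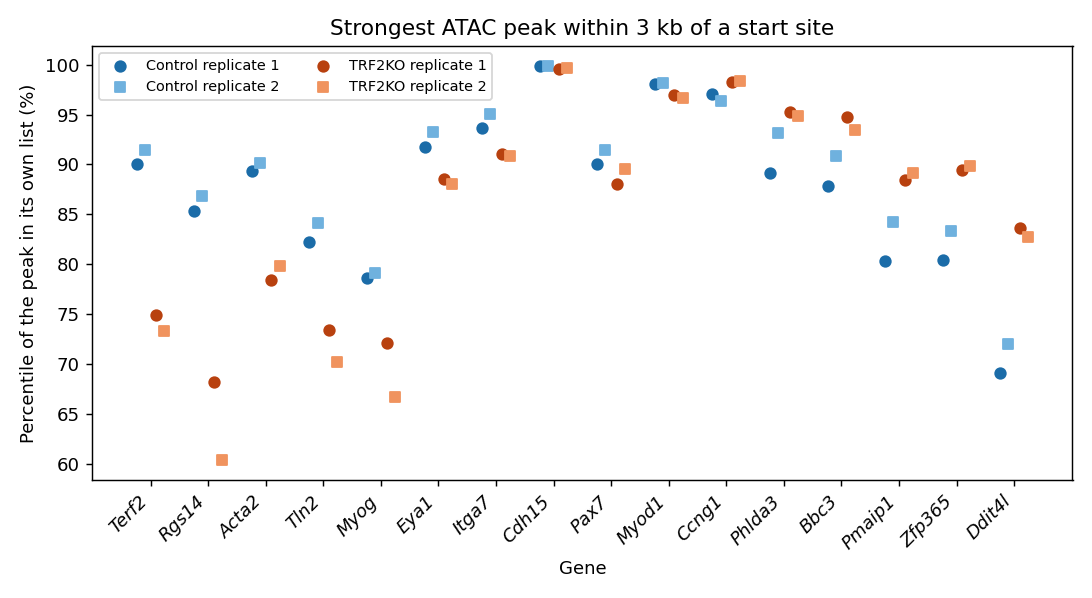
List percentile (%, vertical axis) of the strongest peak within 3 kb for 16 genes in each of the 4 libraries, circles for replicate 1 and squares for replicate 2. From Terf2 to Myod1 the TRF2KO libraries (orange) lie below both Control libraries (blue), and from Ccng1 to Ddit4l they lie above. The genes were picked for display, and Myog, Pax7 and Myod1 did not pass the test. On this scale 31% of all genes lie lower and 9.17% higher.

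More genes of the myogenic program ranked lower than higher. Of 26 measured myogenic regulators, 15 had a gene rank below both Control libraries and 2 above, against 22.7% and 24.6% of all genes. The other pairings separated 1 and 1, and 5 and 2. The narrowest balance with a library left out was 17 lower and 6 higher, without TRF2KO replicate 1. The median difference in gene rank was -1.92. The fit called 1 member lower, Eya1, where 1.33% of all genes were called lower. Eya1, a transcriptional cofactor upstream of myogenesis, had folds of 61.9 and 56.9 in Control and 49.9 and 44.9 in TRF2KO (-0.43 ± 0.0840, adjusted p = 0.0271). Myog, which encodes the differentiation factor myogenin, had 26.7 and 20.9 against 18.8 and 13.8 and did not pass (adjusted p = 0.0877). Myod1 had 121 and 102 against 110 and 100 (adjusted p = 0.0879). Mymk, which encodes the fusion protein myomaker, had folds from 2.74 to 5.94, over different peaks.

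Of 45 genes of satellite cell identity and quiescence, 20 lay lower and 8 higher, against 22.7% and 24.6% of all genes. The other pairings gave 1 lower and 7 higher, and 6 and 3. Without TRF2KO replicate 1 the counts were 22 lower and 15 higher, the narrowest balance with a library left out. The fit called 2 lower and none higher, where 1.33% of all genes were called lower and 0.444% higher. Itga7, the laminin-binding integrin used to sort MuSCs, had folds of 73.4 and 68.0 in Control and 60.4 and 56.1 in TRF2KO (-0.39 ± 0.0778, adjusted p = 0.0276). Cdh15, which encodes M-cadherin, had 191 and 170 against 175 and 175, so its raw folds overlapped while its ranks did not (-0.20 ± 0.0426, adjusted p = 0.0404). Pax7, the defining factor of these cells, had 54.5 and 48.4 against 47.8 and 50.4 (adjusted p = 0.423), and Myf5 had 52.0 and 43.9 against 53.5 and 50.4 (adjusted p = 0.92). Cd34 and Klf4 ranked higher in both TRF2KO libraries without passing the test (adjusted p = 0.40 and 0.347). The Notch pathway gave 11 lower and 7 higher of 40, with none called, and Hes1, a Notch target, had 130 and 111 against 124 and 116.

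Contractile, matrix and adhesion genes also had more members lower than higher, read against 22.7% lower, 24.6% higher and 1.33% called lower over all genes. Of 38 sarcomere and differentiation genes, 15 lay lower and 7 higher, with 4 called lower. The other pairings gave 6 lower and 2 higher, and 3 and 5, and without TRF2KO replicate 2 the counts were 18 and 13. Of the 4, Ttn and Myoz1 had the same peak inside the window. Ttn, the giant elastic protein of the sarcomere, had folds of 16.6 and 12.6 in Control and 9.38 and 6.13 in TRF2KO (adjusted p = 0.0469). The summit of the Acta1 peak lay over 3 kb from its start, and Mb compared different peaks. All 5 myofibre markers with a peak in all 4 libraries ranked lower (Acta1, Ckm, Myh1, Tnnt3 and Mylpf), and Acta1 alone was called. At Mylpf the list percentiles were 99.87 and 99.87 in Control and 99.83 and 99.83 in TRF2KO, and the raw folds overlapped. The part of myofibre DNA in these results was not tested. Of 37 collagens and laminins, 17 lay lower and 8 higher, where the other pairings gave 2 and 3, and 4 and 3. Without Control replicate 2 these counts were 21 and 12. Col6a3, a chain of collagen VI, had 59.6 and 49.3 against 41.4 and 37.2 (-0.56 ± 0.0908, adjusted p = 0.0088), and Lama5 was also called lower. Col12a1, a fibril-associated collagen, rose from 52.9 and 42.8 to 74.3 and 62.9 (adjusted p = 0.0413).

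Of 31 focal adhesion and integrin genes, 12 lay lower and 3 higher, and Itga7, Tln2 and Actn4 were called lower. Over all genes 22.7% lay lower, 24.6% higher and 1.33% were called lower. The other pairings gave 3 lower and 5 higher, and 5 and 3, and without TRF2KO replicate 1 the counts were 15 and 8. Tln2, which encodes talin 2, a link between integrins and actin, had 32.4 and 28.3 in Control and 19.9 and 16.1 in TRF2KO (-0.78 ± 0.121, adjusted p = 0.00703). Acta2, the smooth muscle actin gene, had 51.8 and 43.7 against 25.8 and 26.3 (-0.94 ± 0.105, adjusted p = 0.000907). It is also a marker of smooth muscle and pericytes. Of the 5 such markers with a peak in all 4 libraries, 2 ranked lower and 1 higher. The sixth, Rgs5, had a peak in neither Control library and folds of 6.18 and 3.40 in TRF2KO. The part of those cells in the Acta2 result was not tested.

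**Figure D4:**
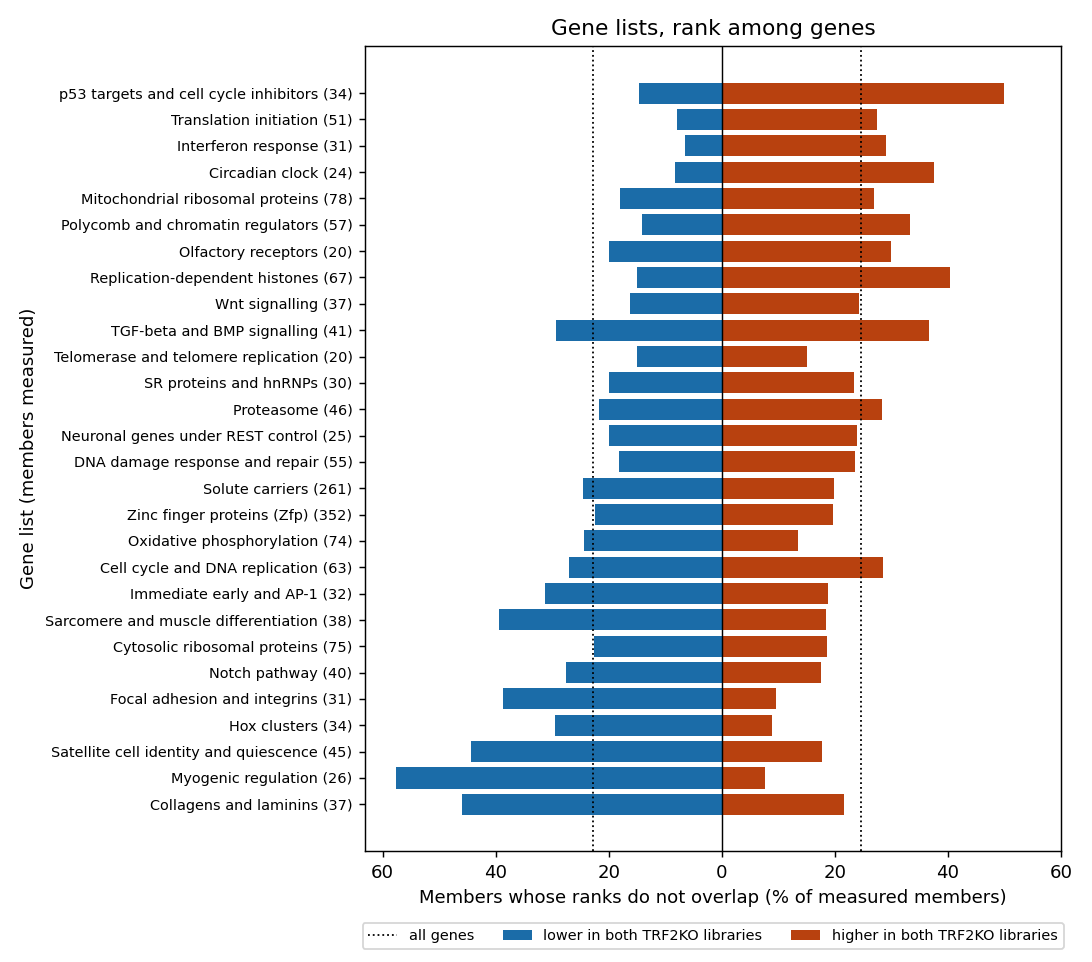
Share of the measured members of each gene list (horizontal axis, %, with the number measured in brackets) whose gene ranks lie below (blue, to the left) or above (orange, to the right) both Control libraries, for lists of 20 or more measured genes. Dotted lines give the same over all genes, 22.7% and 24.6%. Myogenic regulators are the longest bar to the left, and p53 targets and cell cycle inhibitors the longest to the right.

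The peaks of the genes called lower often lay on an E-box. In a 300-bp window centred on the summit in TRF2KO replicate 1, the letters CAGCTG, an E-box that reads the same on both strands, were present at 64.4% of the 191 genes called lower, 25.0% of the 64 called higher and 19.9% of all 14411. This motif was one of several searched after the calls were known, with the p53 response element, the AP-1 site, a telomere repeat pair and other E-boxes, and is given as a description. The windows were read from GRCm38. At 148 genes called lower with the same peak the share was 68.9%. Other E-boxes were searched in the same windows. CAGGTG on either strand was present at 17.8% of the lower genes and 16.9% of all, and CACGTG at 5.76% and 9.69%. The AP-1 site was present at 13.1% of the lower genes, 10.9% of the higher and 4.75% of all.

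The lower peaks were also poor in CpG and farther from the start. Their windows held a median of 5 CpG against 23 over all genes, and their summits lay a median of 1210 bp from the nearest start against 86 bp. Among the 2487 windows with at most 10 CpG, a limit also chosen after seeing the data, CAGCTG was present at 70.2% of 141 lower genes, 39.1% of 23 higher genes and 34.8% of 2323 genes not called. Among windows with more CpG the shares were 48.0%, 17.1% and 16.2%. In the windows with at most 10 CpG the AP-1 site was at 16.3% of the lower genes and 13.1% of all. CACGTG was at 5.67% and 5.59%, so the gaps between lower and all genes were smaller there. At the 23 higher genes the AP-1 site was at 26.1% and CACGTG at 17.4%.

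The share of genes that ranked lower followed the number of these E-boxes. It was 20.2% of 11541 genes with none, 29.7% of 2408 with 1, 45.5% of 374 with 2 and 61.4% of 88 with 3 or more. Genes ranked higher were 25.7%, 21.6%, 12.8% and 12.5%. In the windows with at most 10 CpG the lower shares were 31.5%, 48.5%, 62.2% and 76.4%. The other 2 pairings showed no such rise in the lower share. At 3 or more E-boxes they gave 3.41% and 11.4% lower, and at none 13.01% and 14.9%. A fall in the higher share was not particular to genotype. With second replicates against first it went from 12.6% at none to 9.09% at 3 or more. With Control replicate 2 and TRF2KO replicate 1 against the remaining pair it went from 13.3% to 2.27%.

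**Figure D5:**
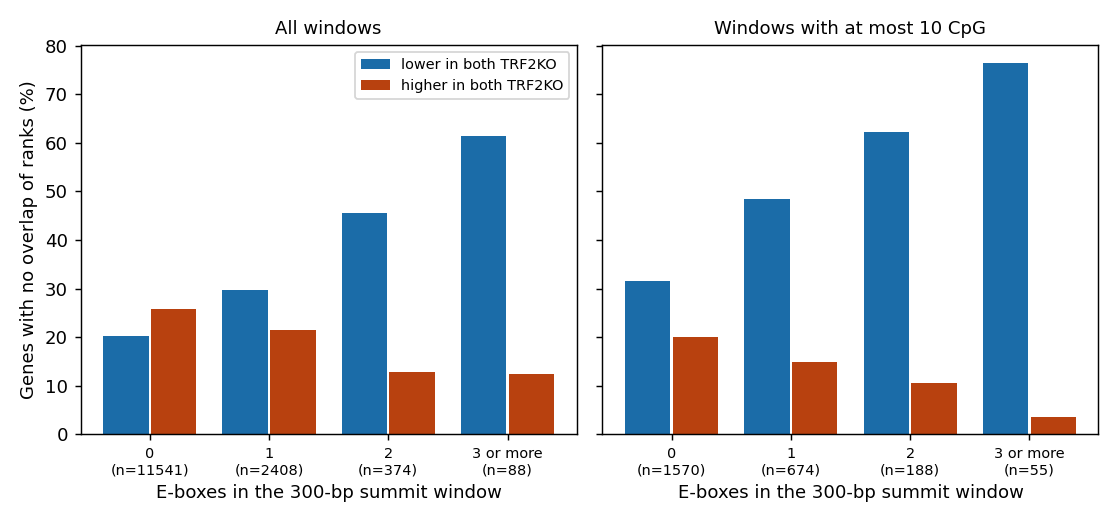
Share of genes (%, vertical axis) whose gene ranks lie below (blue) or above (orange) both Control libraries, by the number of E-boxes in the 300-bp window at the summit, for all windows (left) and windows with at most 10 CpG (right). The lower share goes from 20.2% with none to 61.4% with 3 or more, and from 31.5% to 76.4% in CpG-poor windows.

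The windows of 4 genes called lower show how these letters are placed, with CAGCTG in capitals. All are on the plus strand of GRCm38, 5′ to 3′. Rgs14 (chr13:55371331-55371630) lies in an intron of the gene and holds 3. Cdh15 (chr8:122850662-122850961) is also intronic and holds 3. Tln2 (chr9:67542052-67542351) is intronic and holds 2. Lta (chr17:35208021-35208320) is intergenic, 2819 bp upstream of the nearest start, and holds 2. The sequence is that of the NCBI RefSeq genome.
Rgs14: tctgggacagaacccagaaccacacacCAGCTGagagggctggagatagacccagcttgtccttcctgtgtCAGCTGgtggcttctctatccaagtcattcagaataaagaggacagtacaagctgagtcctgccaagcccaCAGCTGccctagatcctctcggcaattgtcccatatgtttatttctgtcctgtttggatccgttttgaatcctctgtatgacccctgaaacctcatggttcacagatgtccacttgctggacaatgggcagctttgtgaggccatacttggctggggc
Cdh15: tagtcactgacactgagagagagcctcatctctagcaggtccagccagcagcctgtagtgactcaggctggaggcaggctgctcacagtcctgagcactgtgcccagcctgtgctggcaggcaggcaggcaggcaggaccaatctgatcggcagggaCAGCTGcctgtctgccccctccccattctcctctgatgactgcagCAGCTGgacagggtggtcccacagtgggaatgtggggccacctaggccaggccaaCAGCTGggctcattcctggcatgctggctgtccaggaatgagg
Tln2: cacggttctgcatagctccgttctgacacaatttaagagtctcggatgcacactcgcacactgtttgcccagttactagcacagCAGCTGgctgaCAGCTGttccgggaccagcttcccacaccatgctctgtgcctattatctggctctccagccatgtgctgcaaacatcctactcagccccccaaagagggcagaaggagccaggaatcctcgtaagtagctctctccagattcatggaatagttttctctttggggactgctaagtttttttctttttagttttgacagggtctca
Lta: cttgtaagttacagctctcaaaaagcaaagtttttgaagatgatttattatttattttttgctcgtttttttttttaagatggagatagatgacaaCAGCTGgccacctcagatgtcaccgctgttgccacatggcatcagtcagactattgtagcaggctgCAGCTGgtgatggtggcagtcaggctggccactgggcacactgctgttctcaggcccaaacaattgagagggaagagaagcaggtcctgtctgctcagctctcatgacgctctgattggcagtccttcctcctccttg

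Myog, which did not pass the test, and Bbc3, which was called higher, are shown for contrast. The Myog window (chr1:134289585-134289884) lies 255 bp upstream of its start and holds 1 E-box and 7 CpG. The Bbc3 window (chr7:16310048-16310347) lies in an intron, holds no E-box and has 34 CpG. No p53 response element was found by exact match in the windows of the 34 p53 targets and cell cycle inhibitors. Of all 14411 windows 5 held one, that of Mmrn2 among them.
Myog: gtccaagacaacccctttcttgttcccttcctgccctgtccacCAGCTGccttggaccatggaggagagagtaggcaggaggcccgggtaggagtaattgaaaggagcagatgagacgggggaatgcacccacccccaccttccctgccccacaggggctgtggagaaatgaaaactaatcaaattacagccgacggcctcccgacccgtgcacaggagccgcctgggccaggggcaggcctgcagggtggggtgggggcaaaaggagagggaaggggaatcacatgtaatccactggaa
Bbc3: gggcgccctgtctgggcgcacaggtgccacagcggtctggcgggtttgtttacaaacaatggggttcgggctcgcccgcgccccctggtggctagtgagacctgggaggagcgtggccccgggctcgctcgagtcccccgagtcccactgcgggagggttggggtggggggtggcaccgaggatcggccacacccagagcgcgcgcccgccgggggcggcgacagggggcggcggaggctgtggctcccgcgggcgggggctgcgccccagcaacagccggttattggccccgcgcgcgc

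Widths did not pass the test. The fit of log2 peak width called 0 genes narrower (0%) and 0 wider (0%) in TRF2KO by limma, with 532 and 342 at an unadjusted p under 0.05. The genes with the smallest p, none called, were Pxn, Tcf4, Mbnl2, Pcdh17 and Grrp1 among the narrower and Dbn1, Kif26b, Slurp1, Zmynd11 and Git2 among the wider. Mbnl2, Dbn1, Slurp1, Zmynd11 and Git2 compared different peaks. The Pxn peak, at the gene of the adhesion adaptor paxillin, spanned 4347 and 4108 bp in Control and 860 and 842 bp in TRF2KO (adjusted p = 0.0786). The Tcf4 peak, at the gene of an E-protein partner of MyoD, spanned 5310 and 5387 bp against 1119 and 940 bp (adjusted p = 0.0786). The Kif26b peak went from 636 and 872 bp to 3766 and 3853 bp (adjusted p = 0.0856).

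A promoter peak was found in both Control libraries and neither TRF2KO library at 92 genes, and the reverse at 40. The other pairings gave 28 and 74, and 25 and 71, so 92 was above each of these and 40 lay between them. At 62 and 33 of these genes no peak of any of the 3 callers was found in the other genotype. With SEACR regions the counts were 75 and 114, so the direction of the balance turned with the caller. Ordered by the lower of the 2 folds, the first 6 in Control were Ctrc, Sostdc1, Gm11213, Cdcp2, Pzp and Cd52. Ctrc had folds of 10.1 and 9.18, and Sostdc1, a BMP and Wnt antagonist, had 9.67 and 7.74. Single libraries reached higher at Gstm6 (30.8 and 3.24) and Cnga1 (2.76 and 19.6), which were picked out after their values were seen. In the same order, Chrm1, Fbxo41, Spx, Mctp2 and Sez6l were among the first in TRF2KO, with folds of 4.80 and 4.77 at Chrm1. Another caller listed a peak in both Control libraries at Chrm1, and in 1 TRF2KO library at Ctrc and at Cd52. The summits of Sostdc1 and Pzp lay over 3 kb from a start. A missing peak means only that the threshold was not passed.

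TRF2 occupancy, measured by CUT&Tag in MuSCs after injury, was set beside the ATAC ranks. Of the 14411 genes, 5763 had a TRF2 peak within 3 kb in both CUT&Tag libraries, 3518 in 1 and 5130 in none. By gene rank, 20.5%, 23.4% and 24.7% of these lay lower in TRF2KO and 25.0%, 26.3% and 22.9% higher. A TRF2 peak in both libraries was found at 14.1% of the genes called lower, 29.7% of those called higher and 39.99% of all. Occupied promoters were stronger, at a median list percentile of 95.4 in Control replicate 1 against 75.5 for unoccupied ones, and the part of peak strength in these shares was not tested. Terf2 itself had a TRF2 peak in 1 library. From its ATAC-seq the study reported no accessibility change at TRF2 targets with altered expression after deletion. Expression was not used here.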

How the data were processed

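ATAC-seq was made from sorted mouse MuSCs, 2 Control and 2 TRF2KO libraries at 0 h. Per the submitters' processing notes, the tools were Bowtie2 2.5.4, Picard 3.1.1, SAMtools 1.10, deepTools 3.5.3, MACS3 3.0.2, SEACR 1.3 and DiffBind 3.10.1, on mm10 (GRCm38). The methods of the study give other versions of Bowtie2 and MACS. Whether reads were shifted for the cut of the transposase is not given in the sources used here. The authors deposited MACS peaks with a fold (ratio) at the summit, a −log10 p and a −log10 q. The authors also deposited SEACR regions with normalised signal and GoPeaks positions. Depth is unknown, so no counting interval is given.

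Start sites of all transcripts came from GENCODE M21, and peaks with any base within 3 kb were used. Fits used limma 3.58.1 in R on log2 fold (quantile normalised) or log2 width (median centred), TRF2KO against Control with no covariate, Benjamini-Hochberg over all genes fitted, and were tested on simulated data, where wrong calls were somewhat more frequent than the nominal rate. Named genes were Terf2, the 12 largest called differences each way, the 5 smallest p each way for width, the 6 strongest one-genotype peaks each way, list members with the largest rise and fall, and a set of MuSC genes. The members, 32 gene lists and tests were chosen with earlier results of these data known. Same replicate numbers did not deviate together (r = -0.0091 across genes). Consensus lists and IgG were not used, and a few genes that these rules name are not reported here.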

Additional observations from a re-analysis of the deposited data

How the results depend on the processing

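Counts of called genes depended on the processing. The fit of log2 fold called 191 genes lower and 64 higher, and 249 and 96 with the replicate number as a block. It called 50 and 20 with the 5' end of the gene record and 1 kb, 56 and 15 without the trend, 274 and 100 with each library centred on its median, 131 and 31 for genes with a peak in at least 3 libraries, 289 and 122 by summit distance and 262 and 108 for genes with summits within 500 bp. The last 2 settings were chosen after seeing the data. Leaving out 1 library gave 0 lower genes each time and between 0 and 1 higher. Width gave 0 calls under every setting run, the replicate block included. Among named genes, Kcnh2 (0.25) and Nfasc (0.14) reversed with the 5' end and 1 kb, and Slurp1 (-0.70) and Trpm5 (0.012) by summit distance, as log2 differences.

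Genes ranked higher in TRF2KO numbered 3544 by gene rank and genes ranked lower or higher numbered 604 and 3852 by SEACR signal. By list percentile, leaving out 1 library moved the lower count between 4966 and 9777 and the higher count between 1622 and 5913, higher by construction, since 3 libraries overlap less often. The Terf2 difference of -16.6 percentile points was -31.6 by gene rank and -36.1 by SEACR. The difference between genes with a TRF2 peak in both CUT&Tag libraries and genes with none was 0.685 percentile points. It was 0.137 by gene rank and -1.05 by SEACR. By list percentile it was -0.143 without Control replicate 2 and 1.64 without Control replicate 1. Of the 32 lists, 30 had a median below 0 and 2 above by list percentile, against 14 and 18 by gene rank, and leaving out 1 library gave 13 to 32 below and 0 to 19 above. Genes with a peak in one genotype were 75 for Control and 114 for TRF2KO with SEACR, against 92 and 40, and leaving out 1 library gave 174 to 313 for Control and 83 to 165 for TRF2KO. The causes were not tested.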

Other observations

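Gene ranks of further groups are given against 24.6% higher and 22.7% lower over all genes, and none of their members was called. Of 67 replication-dependent histone genes, 27 lay higher and 10 lower in TRF2KO, with 28 and 21 without Control replicate 2 and 33 and 24 without TRF2KO replicate 1. These genes lie in clusters and share peaks. Of 57 Polycomb and chromatin regulators, 19 lay higher and 8 lower. Of 24 circadian clock genes, 9 lay higher and 2 lower, and 1 of the other pairings separated 7 higher and 1 lower. Of 31 interferon response genes, 9 lay higher, a share near that of all genes, and 2 lower, and without Control replicate 2 the counts were 12 and 11. Of 34 Hox genes, 10 lay lower and 3 higher, and 1 of the other pairings gave 11 and 6.

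Of 9 measured keratin genes, 6 lay lower, 1 lay higher and 4 were called lower. Over all genes 22.7% lay lower, 24.6% higher and 1.33% were called lower. The other pairings gave 0 lower and 0 higher, and 1 and 1. The 4 called genes all lie on chromosome 15 and are not 4 separate observations. Krt4 and Krt79 share 1 peak, of fold 42.3 and 30.8 in the Control libraries and 15.6 and 15.2 after deletion. The summit of that peak lay over 3 kb from the start of either gene. The Krt82 peak lies in an exon of Krt90.

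Genes near the modified loci were counted against 1.33% lower and 0.444% higher over all genes. Within 5 Mb of Terf2, 3 of 130 other genes were called lower and 0 higher. Within 1 Mb of Terf2 the counts were 0 and 0 of 25, and within 20 Mb 7 and 3 of 326. Within 5 Mb of Pax7, whose locus carries the Cre, 5 of 114 were called lower and 2 higher. Within 1 Mb of Pax7 the counts were 1 and 1 of 21, and within 20 Mb 10 and 4 of 444.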
